A study of Homo sapiens with 6 samples.

Results

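Activins, TGF-betas and bone morphogenetic proteins (BMPs) belong to a single family of secreted ligands, and this account follows the genes of that pathway in cells treated with siRNA against LOC550643. Members were taken by gene symbol from the protein-coding rows of the deposited table: names made of BMP, GDF, SMAD, LTBP or ID and a number, TGFB and TGFBR with a number, all INHB, ACVR and BMPR genes, and FST, FSTL3, NOG, GREM1, SMURF1 and SMURF2. This gave 60 of the 26391 rows, 19255 of which are protein-coding. The rule itself uses names only, but it was written with earlier results of these data known.

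Activin, TGF-beta and BMP ligands are secreted as dimers cleaved from larger precursors, and TGF-betas leave the cell held inactive by their prodomain and a latent TGF-beta binding protein. A ligand brings type I and type II receptor kinases together, the type I receptor phosphorylates receptor SMADs, and these enter the nucleus with SMAD4. Inhibitory SMADs, SMURF ubiquitin ligases and secreted antagonists such as follistatin and noggin restrain the pathway, and the ID genes are among its best-known BMP targets.

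Poly-A RNA was sequenced from HEK293T, an established human line of embryonic kidney origin that expresses the SV40 large T antigen. The tested cells received a pool of 4 siRNAs (Qiagen) against LOC550643, a gene for a small protein reported to bind the decapping factor EDC4, and the controls received a non-targeting siRNA. Both groups were transfected at 50% confluency with Dharmafect I and lysed after 48 hours, and each group has 3 libraries. The comparison asks whether steady-state RNA levels differ when LOC550643 is silenced. As only 1 pool and 1 control siRNA were used, silencing and any other action of these reagents cannot be told apart. The labels do not state separate passages for the replicates, so the p-values rest on a spread between libraries that may be technical only.

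The LOC550643 siRNA libraries held 8604236 to 35249993 read pairs on genes and the control libraries 32309964 to 36082404, as inferred from the values. LOC550643 siRNA replicate 3 was the shallowest, and control replicate 2 stood farthest from its own group. LINC01420, the earlier symbol of LOC550643, was at 5.86, 6.00 and 5.36 CPM (the deposited values as a rate of the TMM-scaled library total) in the LOC550643 siRNA libraries and at 56.2, 50.5 and 52.1 CPM in the control libraries, and its log2 fold change was -3.20 (limma adjusted p = 1.16e-09). All 9 genes listed as usual for HEK293 cells were above 1 CPM in the control libraries, and their summed level was 1241 to 1386 CPM with LOC550643 siRNA and 1121 to 1243 CPM with control siRNA. Of these, NEFM and KRT18 were called higher and INA lower. Of 8 fibroblast markers 1 was called higher and 2 lower, with sums of 249 to 273 CPM with LOC550643 siRNA and 229 to 246 CPM with control siRNA, while COL1A2 and DCN were near 0. The blood marker HBB, the liver markers SERPINA1 and AFP and the keratinocyte marker KRT1 were at 0, and the part of these marker shifts in the results was not tested.

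Pathway genes differed in both directions after LOC550643 siRNA, with calls among 13 of 20 tested ligands and 3 of 4 latent TGF-beta binding proteins and none among the 4 type II receptors and 5 receptor SMADs. Of the 60 members, 54 had enough reads to be tested, and 26 were called at an adjusted p under 0.05, 11 higher and 15 lower. Among all 16245 genes tested, 35.3% were called, 17% higher and 18.2% lower, and no test was run of whether the members' share of 48.1% differs from that. The groups did not overlap at 33 of the tested members, and at 48.1% of all genes tested. The median log2 fold change of the members was -0.10, against -0.02 for all genes tested. Many differences were small. Of the 26 called members, 15 changed by less than 1.5-fold, as did 4043 of the 5730 genes called in all. The median absolute log2 fold change was 0.54 for called members and 0.44 for all called genes. Of the 54 tested members, 4 (INHBA, BMP2, GDF10 and FST) were called and passed a 2-fold change, as did 2.78% of all genes tested. When libraries were scaled by their totals without TMM, 9 members were higher and 22 lower, and the share of higher genes among all calls fell to 34.4%, against 48.3% with TMM. In bulk RNA, fewer cells that express a gene cannot be told apart from less RNA in each cell.

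**Figure D1:**
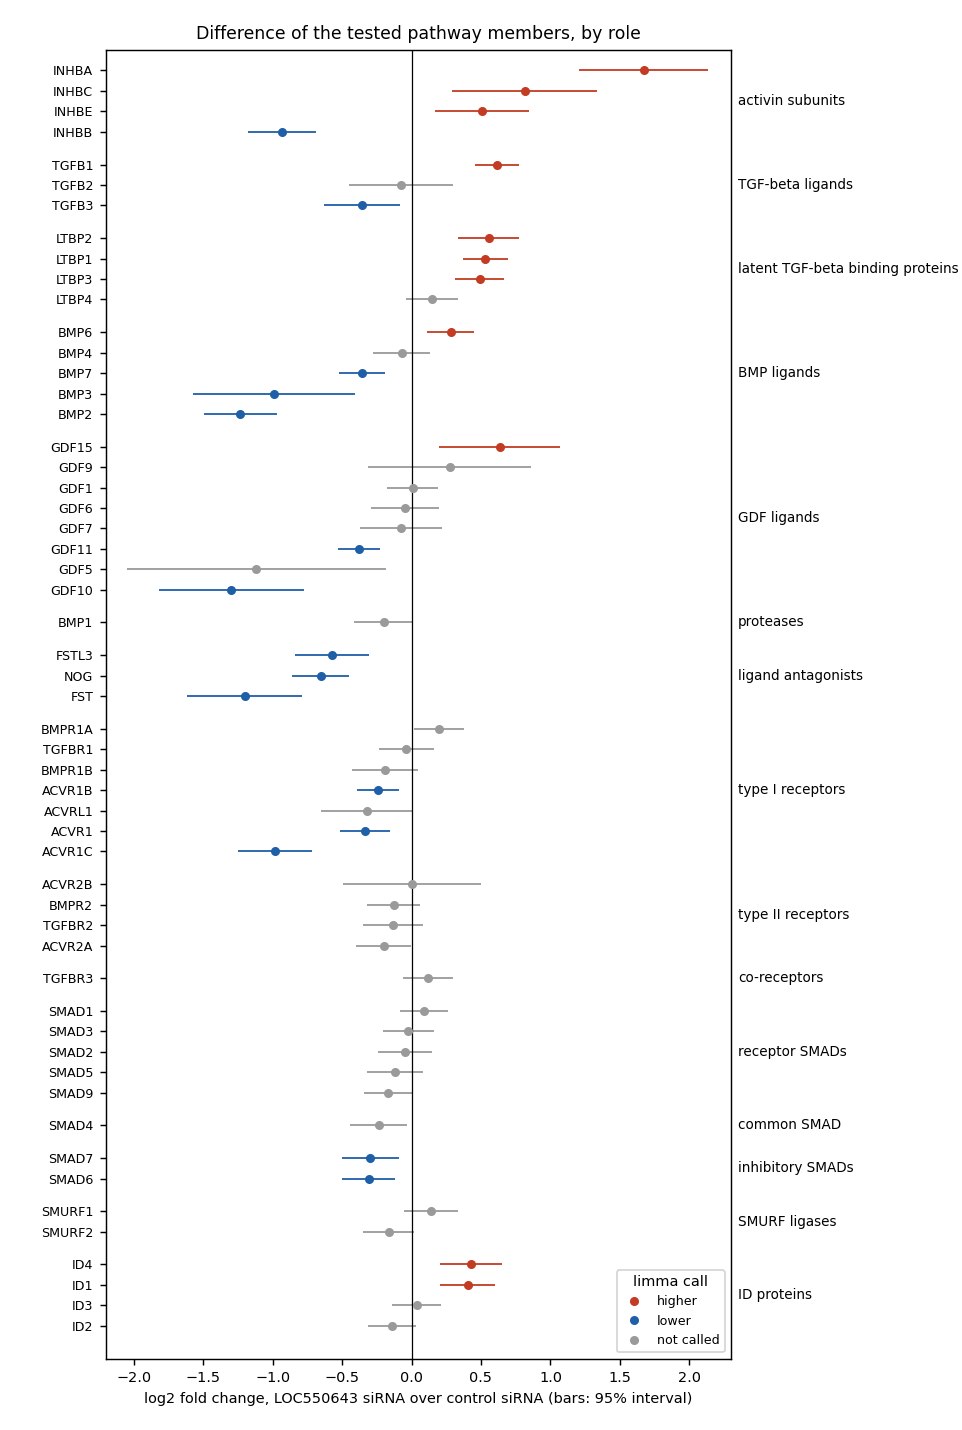
Log2 fold change of the 54 tested members, LOC550643 siRNA over control siRNA (horizontal axis), grouped by role; points are limma estimates, bars are 95% intervals, and colour gives the call. INHBA at 1.67 is farthest to the right and GDF10 at -1.30 farthest to the left, while all type II receptors, receptor SMADs and SMURF ligases are grey.

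All 4 activin beta subunits were called, INHBA, INHBC and INHBE higher and INHBB lower. INHBA encodes the subunit of activin A (chromosome 7, 41728601 to 41742706, minus strand, hg19). It stood at 2.48, 3.20 and 3.12 CPM in LOC550643 siRNA replicates 1 to 3, and at 0.997, 1.03 and 0.694 CPM in control replicates 1 to 3. Every LOC550643 siRNA library was above every control library, although the gene is rare in both groups, at 26.5 to 94.5 read pairs with LOC550643 siRNA and 25.5 to 35.5 with control siRNA. In limma this gave a log2 fold change of 1.67 (SE 0.21, adjusted p = 0.000107), 3.24-fold in mean CPM. INHBA-AS1 shares 248 exon bases with INHBA on the opposite strand. It was at 0.0877 CPM with LOC550643 siRNA and 0.00964 CPM with control siRNA, too low to be tested. INHBB, the subunit of activin B (chromosome 2, 121103719 to 121109383, plus strand, hg19), went the other way. Its level was 7.99, 8.98 and 7.07 CPM in the LOC550643 siRNA libraries and 15.5, 14.5 and 15.7 CPM in the control libraries. These groups lie well apart, and limma put the log2 fold change at -0.93 (SE 0.11, adjusted p = 6.3e-05).

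The 250 bases before the starts of INHBA and INHBB are shown for comparison (RefSeq, GRCh38.p14). Whether they bear on the opposite directions of these genes was not tested. INHBA is read from the minus strand of chr7:41703091-41703340 and INHBB from the plus strand of chr2:120345886-120346135. Capitals mark GGCGCC, a GC-rich element that SMAD proteins can bind.
INHBA: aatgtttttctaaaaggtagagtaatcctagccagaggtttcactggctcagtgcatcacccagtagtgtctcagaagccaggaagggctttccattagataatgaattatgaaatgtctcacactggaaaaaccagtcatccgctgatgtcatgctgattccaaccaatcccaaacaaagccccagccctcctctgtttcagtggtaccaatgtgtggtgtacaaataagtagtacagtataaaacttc
INHBB: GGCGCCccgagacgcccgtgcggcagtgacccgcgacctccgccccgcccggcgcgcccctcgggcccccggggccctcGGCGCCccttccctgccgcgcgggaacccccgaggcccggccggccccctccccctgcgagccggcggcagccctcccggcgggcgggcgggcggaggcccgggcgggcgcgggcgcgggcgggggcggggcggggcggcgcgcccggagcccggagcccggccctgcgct
The INHBB window is 89.6% G and C and holds GGCGCC 2 times, while the INHBA window is 42.8% G and C and holds none. GGCGCC occurs in 16.1% of 27305 RefSeq promoter windows of this length, and in 14 of the 52 members that the table holds. As GGCGCC is made of G and C alone, its counts cannot be separated from the base content of the windows. A match on either strand describes the letters alone and is not evidence of binding.

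Weighed per transcript length, INHBA remained the rarer of this pair. The ratio of INHBA to INHBB in CPM per kilobase was 0.458, 0.526 and 0.651 in the LOC550643 siRNA libraries and 0.0947, 0.104 and 0.065 in the control libraries. The lowest ratio with LOC550643 siRNA is above the highest with control siRNA. INHBC and INHBE, subunits known mainly from liver, lie 3250 bases apart on chromosome 12 and share a strand. INHBC was at 2.16, 1.36 and 2.297 CPM with LOC550643 siRNA and at 0.937, 1.03 and 1.24 CPM with control siRNA (log2 fold change 0.81, SE 0.24, limma adjusted p = 0.0189). INHBE, per length the most abundant subunit, was at 61.0, 52.9 and 40.4 CPM with LOC550643 siRNA and 41.5, 28.01 and 38.9 CPM with control siRNA. Its groups overlap, because LOC550643 siRNA replicate 3 lies below control replicate 1, and the log2 fold change of 0.51 (SE 0.16) had a limma adjusted p of 0.0234. Neither call held in every setting. Over 20 alternative settings the adjusted p of INHBC ran from 0.00793 to 0.135, and the call was lost without LOC550643 siRNA replicate 1 or 3 (0.0725 and 0.0645), without control replicate 1 (0.0866), and with all libraries thinned to the shallowest (0.135). That of INHBE ran from 0.00187 to 0.102, and the call was lost without LOC550643 siRNA replicate 1 or 2 (0.102 and 0.09), without control replicate 2 (0.0803) and with library totals alone (0.0563). Without control replicate 2 its log2 fold change was 0.32.

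**Figure D2:**
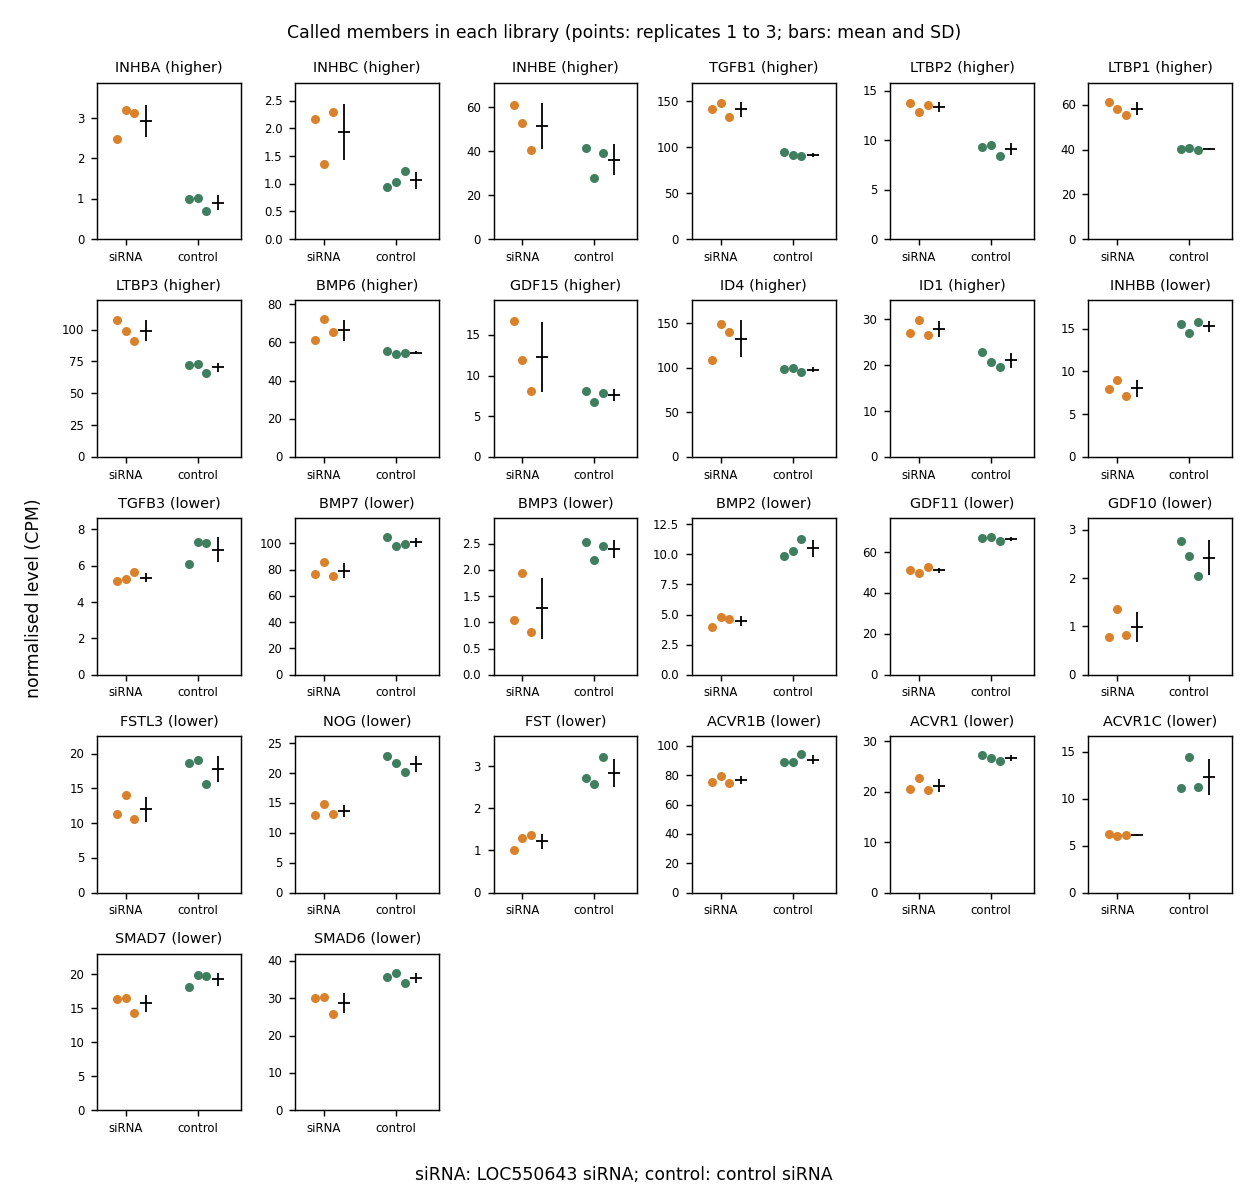
Normalised level in CPM (vertical axes, each from 0) of the 26 called members in each library; points are replicates 1 to 3, with LOC550643 siRNA left of control siRNA, and the bars beside them show the mean and SD. The groups are apart in 24 panels and overlap in those of INHBE and GDF15.

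TGFB1, by level the main TGF-beta ligand of these cells, rose together with 3 of the 4 genes for latent TGF-beta binding proteins. TGFB1 (chromosome 19, 41836436 to 41859838, minus strand, hg19) had 142, 149 and 133 CPM in the LOC550643 siRNA libraries and 94.2, 91.3 and 90.2 CPM in the control libraries. No value of either group comes near the other group, and limma put the log2 fold change at 0.62 (SE 0.07, adjusted p = 5.26e-05). TGFB3 was lower, at 5.14, 5.26 and 5.65 CPM with LOC550643 siRNA and 6.07, 7.31 and 7.24 CPM with control siRNA (log2 fold change -0.36, SE 0.13, limma adjusted p = 0.0422). Over 20 settings its adjusted p ran from 0.0189 to 0.117, and the call was lost in 9. These include leaving out LOC550643 siRNA replicate 1 or 2 (0.101 and 0.103) or control replicate 2 or 3 (0.0916 and 0.116). TGFB2 averaged 3.46 ± 0.469 CPM with LOC550643 siRNA and 3.66 ± 0.695 CPM with control siRNA (SD, n = 3 each) and was not called. It shares exon sequence with TGFB2-OT1 and TGFB2-AS1. Because TGFB1 makes up 96.2% of the TGF-beta ligand level per length with LOC550643 siRNA and 93.2% with control siRNA, the summed level followed it, at 56.9 ± 3.06 CPM per kilobase with LOC550643 siRNA and 38.3 ± 0.653 with control siRNA.

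The latent TGF-beta binding proteins tie the inactive ligand to the matrix. LTBP1 had 61.3, 58.0 and 55.5 CPM with LOC550643 siRNA and 40.3, 40.7 and 39.8 CPM with control siRNA (log2 fold change 0.53, SE 0.07, limma adjusted p = 0.00018). LTBP2, a matrix protein of the same family that does not bind latent TGF-beta, had 13.7, 12.8 and 13.5 CPM with LOC550643 siRNA and 9.31, 9.55 and 8.43 CPM with control siRNA (log2 fold change 0.55, SE 0.10, limma adjusted p = 0.00114). In both genes the groups are clearly apart. LTBP3 had 108, 98.8 and 91.0 CPM with LOC550643 siRNA and 72.4, 72.7 and 66.2 CPM with control siRNA (log2 fold change 0.49, SE 0.08, limma adjusted p = 0.000597). Its groups do not overlap either. LTBP4, per length the most abundant of the family, averaged 291 ± 30.8 CPM with LOC550643 siRNA and 263 ± 10.4 CPM with control siRNA, its groups overlapped and it was not called (log2 fold change 0.14, limma adjusted p = 0.213).

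Among the BMP ligands BMP2, BMP3 and BMP7 were lower and BMP6 was higher. BMP2, an osteogenic ligand (chromosome 20, 6748745 to 6760910, plus strand, hg19), had 3.99, 4.76 and 4.59 CPM with LOC550643 siRNA and 9.90, 10.3 and 11.2 CPM with control siRNA. Its highest LOC550643 siRNA library lies below all control libraries, and limma put the log2 fold change at -1.23 (SE 0.12, adjusted p = 1.54e-05). BMP7, which is needed for kidney development, is far more abundant per length. It had 76.7, 85.6 and 75.0 CPM with LOC550643 siRNA and 105, 98.4 and 99.8 CPM with control siRNA (log2 fold change -0.35, SE 0.08, limma adjusted p = 0.00317), and BMP7-AS1, listed within it on the opposite strand, was at 0 in both groups. BMP3, an atypical ligand that opposes other BMPs, had 1.05, 1.93 and 0.824 CPM with LOC550643 siRNA and 2.54, 2.20 and 2.45 CPM with control siRNA (log2 fold change -0.99, SE 0.27, limma adjusted p = 0.0128). LOC550643 siRNA replicate 2 lies close to the control libraries here, and replicate 3 holds 7 read pairs. The adjusted p of BMP3 ran from 0.00196 to 0.0653 over 20 settings, with the call lost without control replicate 1 (0.0514) and after thinning (0.0653).

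BMP6, best known as the signal for hepcidin in iron balance, was the only BMP ligand called higher. It had 61.4, 72.2 and 65.2 CPM with LOC550643 siRNA and 55.2, 53.7 and 54.4 CPM with control siRNA (log2 fold change 0.28, SE 0.08, limma adjusted p = 0.0147). The groups do not overlap, but without LOC550643 siRNA replicate 2, its highest library, the adjusted p was 0.0707, in a range of 0.00578 to 0.0707 over 20 settings. BMP6 shares 212 exon bases with TXNDC5 and 207 with BLOC1S5-TXNDC5 on the opposite strand. Both rows are far more abundant than BMP6. TXNDC5 averaged 408 CPM with LOC550643 siRNA and 354 CPM with control siRNA, and BLOC1S5-TXNDC5 383 and 337 CPM. Their log2 fold changes of 0.20 and 0.18 have the sign of BMP6 but were not called (limma adjusted p = 0.0592 and 0.0832). The part of shared reads in the BMP6 difference was not tested. BMP4 averaged 15.4 ± 1.21 CPM with LOC550643 siRNA and 16.1 ± 0.412 CPM with control siRNA, and its 95% interval of the log2 fold change, -0.28 to 0.13, includes 0. BMP1, a metalloprotease named with the BMPs, trims procollagen and frees BMPs from chordin. It averaged 21.0 ± 2.12 CPM with LOC550643 siRNA and 24.1 ± 1.61 CPM with control siRNA and was not called, though it passed as lower with library totals alone (log2 fold change -0.27, adjusted p = 0.0441, in a range of 0.0441 to 0.386 over 20 settings).

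Growth differentiation factors (GDFs) showed no common direction, with GDF15 higher, GDF10 and GDF11 lower and 5 not called. GDF10, also known as BMP3B, had 0.783, 1.36 and 0.824 CPM with LOC550643 siRNA and 2.76, 2.46 and 2.04 CPM with control siRNA. The groups are apart, and limma put the log2 fold change at -1.30 (SE 0.24, adjusted p = 0.00127). LOC550643 siRNA replicate 3 holds 7 read pairs of it, and after thinning the adjusted p was 0.065, the highest of 20 settings, against a lowest of 0.000851. GDF11, a relative of myostatin, varied little within groups. It had 51.0, 49.8 and 52.5 CPM with LOC550643 siRNA and 66.6, 67.4 and 65.5 CPM with control siRNA (log2 fold change -0.38, SE 0.07, limma adjusted p = 0.00118). GDF15, a cytokine of cell stress that signals through GFRAL, had 16.7, 11.9 and 8.13 CPM with LOC550643 siRNA and 8.16, 6.74 and 7.82 CPM with control siRNA. LOC550643 siRNA replicate 1 is the highest of all 6 libraries, and replicate 3 lies inside the control range. Limma put the log2 fold change at 0.63 (SE 0.20, adjusted p = 0.0267), with an adjusted p of 0.000722 to 0.106 over 20 settings. MIR3189, listed inside GDF15 on the same strand, was at 0 CPM with LOC550643 siRNA and 0.00901 CPM with control siRNA. The call was lost without LOC550643 siRNA replicate 1 or 2 (0.106 and 0.0864), without control replicate 1, 2 or 3 (0.0543, 0.0731 and 0.0689) and with library totals alone (0.0578). Its log2 fold change was 0.38 without LOC550643 siRNA replicate 1 and 0.90 without LOC550643 siRNA replicate 3.

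GDF5, a joint and cartilage ligand, is near the limit of measurement here. It had 0.087, 0.203 and 0.118 CPM with LOC550643 siRNA, from 1 to 6 read pairs, and 0.317, 0.318 and 0.327 CPM with control siRNA, from 10.5 to 12 read pairs. The groups are apart, but the log2 fold change of -1.12 (SE 0.43) had a limma adjusted p of 0.06. In 18 settings that p ran from 0.0366 to 0.173, and it was under 0.05 in 6 of them, edgeR on recovered reads included. GDF6, GDF7 and GDF9 had log2 fold changes of -0.05, -0.08 and 0.27 and were not called. GDF1 cannot be told apart from CERS1: they are transcribed together and share 2579 exon bases, and both rows stood at a log2 fold change of 0.01.

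All 3 measurable antagonists fell. FST, follistatin, wraps around activins and blocks both receptor sites (chromosome 5, 52776264 to 52782304, plus strand, hg19). It had 1.02, 1.29 and 1.35 CPM with LOC550643 siRNA and 2.72, 2.59 and 3.21 CPM with control siRNA. The LOC550643 siRNA libraries all lie under the lowest control library, at 11.5 to 38 read pairs against 89.5 to 118 in the controls, and limma put the log2 fold change at -1.20 (SE 0.19, adjusted p = 0.00046). FSTL3, a follistatin-like binder of activins and myostatin, had 11.3, 14.1 and 10.6 CPM with LOC550643 siRNA and 18.7, 19.0 and 15.6 CPM with control siRNA (log2 fold change -0.57, SE 0.12, limma adjusted p = 0.00327). NOG, noggin, which binds BMPs, had 13.04, 14.9 and 13.2 CPM with LOC550643 siRNA and 22.9, 21.6 and 20.2 CPM with control siRNA (log2 fold change -0.65, SE 0.10, limma adjusted p = 0.000257). Neither gene's groups overlap. FST, FSTL3, NOG and GREM1 were also summed per length. Their sum was 12.7 ± 1.27 CPM per kilobase with LOC550643 siRNA and 19.9 ± 1.25 with control siRNA. The ratio was 0.637, and noggin made up 57.4% of this sum in both groups. These 3 calls held in all 20 settings.

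Of 7 type I receptors, 3 ACVR genes were lower and the other 4 were not called. ACVR1C encodes ALK7, a receptor for activin B and nodal (chromosome 2, 158383279 to 158485399, minus strand, hg19). It had 6.27, 6.03 and 6.12 CPM with LOC550643 siRNA and 11.1, 14.5 and 11.3 CPM with control siRNA. The LOC550643 siRNA libraries lie within a narrow range far under the controls, and limma put the log2 fold change at -0.98 (SE 0.12, adjusted p = 8.82e-05). ACVR1, or ALK2, is mainly a BMP receptor and lies 107.6 kilobases from ACVR1C on the same strand. It had 20.6, 22.6 and 20.3 CPM with LOC550643 siRNA and 27.3, 26.7 and 26.0 CPM with control siRNA (log2 fold change -0.33, SE 0.08, limma adjusted p = 0.00811). ACVR1B, or ALK4, the main activin type I receptor, is per length the most abundant of the 7. It had 75.2, 79.8 and 74.9 CPM with LOC550643 siRNA and 88.7, 89.0 and 94.3 CPM with control siRNA (log2 fold change -0.24, SE 0.07, limma adjusted p = 0.0176). Its groups do not overlap, but the difference is small, and the adjusted p (0.00268 to 0.056 over 20 settings) was above 0.05 without LOC550643 siRNA replicate 1 or 3 (0.0547 and 0.053) and after thinning (0.056).

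The remaining type I receptors were not called. TGFBR1, the TGF-beta receptor ALK5, averaged 49.3 ± 0.566 CPM with LOC550643 siRNA and 50.9 ± 6.07 CPM with control siRNA. BMPR1A, the BMP receptor ALK3, averaged 28.3 ± 1.59 CPM with LOC550643 siRNA and 24.6 ± 0.759 CPM with control siRNA, with groups that do not overlap (log2 fold change 0.20, limma adjusted p = 0.078). BMPR1B and ACVRL1 were at -0.19 and -0.32 on the log2 scale, also without overlap (limma adjusted p = 0.2 and 0.116). None of the 4 type II receptors, which bind ligand and activate type I receptors, was called by limma, edgeR, DESeq2 or voom, and 1 of them, ACVR2A, had an unadjusted limma p under 0.05. BMPR2 and TGFBR2 had log2 fold changes of -0.13 each, with 95% intervals of -0.32 to 0.06 and -0.35 to 0.08. ACVR2A was at -0.20 (limma adjusted p = 0.106) and passed as lower with library totals alone (0.0272), after thinning (0.0492) and without LOC550643 siRNA replicate 2 (0.049), in a range of 0.0272 to 0.31. ACVR2B varied widely, at 76.8, 58.4 and 95.8 CPM with LOC550643 siRNA and 68.0, 116 and 53.9 CPM with control siRNA, so its interval runs from -0.49 to 0.50. TGFBR3, betaglycan, a co-receptor that presents TGF-beta and inhibin, was at 0.12 (-0.06 to 0.30).

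Both inhibitory SMAD genes were lower, while the 5 receptor SMADs were not called. SMAD6, which mainly restrains BMP signals (chromosome 15, 66994674 to 67074337, plus strand, hg19), had 30.1, 30.4 and 25.7 CPM with LOC550643 siRNA and 35.6, 36.8 and 34.1 CPM with control siRNA. SMAD7, which blocks TGF-beta, activin and BMP receptors alike (chromosome 18, 46446223 to 46477081, minus strand, hg19), had 16.4, 16.5 and 14.2 CPM with LOC550643 siRNA and 18.2, 19.95 and 19.7 CPM with control siRNA. In both genes LOC550643 siRNA replicate 3 is lowest and the groups are apart. Limma gave a log2 fold change of -0.31 for SMAD6 (SE 0.09, adjusted p = 0.0167) and -0.30 for SMAD7 (SE 0.10, adjusted p = 0.0296). Without LOC550643 siRNA replicate 3 both calls were lost (0.0613 for SMAD6 and 0.0935 for SMAD7), and SMAD7 was also lost without control replicate 3 (0.067) and with DESeq2 (0.0583). Over 20 settings the adjusted p ran from 0.00488 to 0.0613 for SMAD6 and from 0.00897 to 0.0935 for SMAD7. In the authors' deposited table SMAD6 has an adjusted p of 0.0279 and SMAD7 of 0.0589.

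SMAD6 and SMAD7 are themselves known SMAD targets, so the 250 bases before a listed start of each are shown (RefSeq, GRCh38.p14). SMAD6 is read from the plus strand of chr15:66701986-66702235 and SMAD7 from the minus strand of chr18:48950966-48951215. Capitals mark GTCTAGAC, the palindromic element that SMAD3 and SMAD4 bind.
SMAD6: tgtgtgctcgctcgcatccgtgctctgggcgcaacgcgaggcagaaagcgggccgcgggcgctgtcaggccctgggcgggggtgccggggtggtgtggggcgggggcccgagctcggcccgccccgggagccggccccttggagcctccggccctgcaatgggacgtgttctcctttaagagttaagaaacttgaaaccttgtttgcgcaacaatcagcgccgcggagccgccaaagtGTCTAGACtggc
SMAD7: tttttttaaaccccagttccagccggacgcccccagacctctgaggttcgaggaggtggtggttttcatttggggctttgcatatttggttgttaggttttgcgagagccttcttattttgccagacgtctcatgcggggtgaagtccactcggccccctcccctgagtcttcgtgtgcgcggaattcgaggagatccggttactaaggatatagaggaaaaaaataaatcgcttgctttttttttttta
The SMAD6 window holds GTCTAGAC 1 time, ending 4 bases before the start, and the SMAD7 window holds none. Other starts of SMAD7 and of the other members were not searched. Whether SMAD7 holds the element near another start was therefore not tested. The element is rare, in 48 of 27305 promoter windows (0.176%), and SMAD6 is the only member among the 52 with a window that holds it. Its shorter core GTCT, counted on both strands and found inside GTCTAGAC too, is in 77.6% of all windows and in 41 of those 52 members. These matches describe letters and say nothing of binding in these cells.

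The receptor SMADs carry the signal to the nucleus, SMAD2 and SMAD3 for TGF-beta and activin, and SMAD1, SMAD5 and SMAD9 for BMPs. SMAD2 averaged 44.95 ± 3.21 CPM with LOC550643 siRNA and 46.5 ± 4.35 CPM with control siRNA, and SMAD3 averaged 48.8 ± 2.23 CPM with LOC550643 siRNA and 49.6 ± 4.46 CPM with control siRNA. Their groups overlap, and the 95% intervals of the log2 fold change run from -0.24 to 0.15 for SMAD2 and from -0.20 to 0.16 for SMAD3. SMAD1, SMAD5 and SMAD9 were at 0.09, -0.12 and -0.17 on the log2 scale. By limma, edgeR, DESeq2 and voom alike 0 of the 5 were called, and 0 had an unadjusted limma p under 0.05. SMAD4, the shared partner, had 56.5, 55.8 and 63.7 CPM with LOC550643 siRNA and 64.6, 79.5 and 64.1 CPM with control siRNA, close but not overlapping (log2 fold change -0.24, limma adjusted p = 0.0704). SMAD4 and SMAD9 passed as lower with library totals alone. Over 20 settings the adjusted p, lowest there, ran from 0.0323 to 0.204 for SMAD4 and from 0.0317 to 0.469 for SMAD9. Of the ubiquitin ligases that degrade SMADs and receptors, SMURF1 was at 0.14 and SMURF2 at -0.16, neither called. SMURF1 passed as higher without control replicate 2 (0.0475, range 0.0475 to 0.582) and SMURF2 as lower with library totals alone (0.0361, range 0.0361 to 0.364).

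ID proteins bind basic helix-loop-helix factors and keep them from DNA, and 2 of the 4 were higher. ID1 had 27.1, 30.0 and 26.6 CPM with LOC550643 siRNA and 22.9, 20.8 and 19.5 CPM with control siRNA (log2 fold change 0.40, SE 0.09, limma adjusted p = 0.00449). ID4 had 109, 149 and 140 CPM with LOC550643 siRNA and 98.3, 99.8 and 94.7 CPM with control siRNA (log2 fold change 0.43, SE 0.10, limma adjusted p = 0.00633). The groups are apart in both, though LOC550643 siRNA replicate 1 of ID4 lies near the controls. ID2 and ID3, more abundant per length, were not called. ID2 averaged 158 ± 12.2 CPM with LOC550643 siRNA and 173 ± 9.78 CPM with control siRNA, and ID3 averaged 113 ± 6.53 CPM with LOC550643 siRNA and 111 ± 9.57 CPM with control siRNA. The direction of ID3 turned with library totals alone (-0.04), where ID2 passed as lower (-0.21, adjusted p = 0.0381, range 0.0381 to 0.461). Per length, the 4 ID genes together held 265 ± 17.6 CPM per kilobase with LOC550643 siRNA and 260 ± 15.7 with control siRNA, sums that overlap.

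Compared per transcript length, the order of the members was led by ID2, ID3, LTBP4 and TGFB1 in both groups. ID2 stood at 116 ± 8.96 CPM per kilobase with LOC550643 siRNA and 128 ± 7.19 with control siRNA, and ID3 at 91.95 ± 5.29 with LOC550643 siRNA and 89.7 ± 7.75 with control siRNA. With LOC550643 siRNA, LTBP4 (57.0 ± 6.02) and TGFB1 (54.8 ± 3.12) do not differ beyond their SD, while with control siRNA LTBP4 (51.4 ± 2.04) was above TGFB1 (35.7 ± 0.807). INHBA ranked 44 among the 60 members with LOC550643 siRNA and 52 with control siRNA. INHBB ranked 39 with LOC550643 siRNA, at 2.51 ± 0.30 CPM per kilobase, and 37 with control siRNA, at 4.77 ± 0.20. INHBE supplied 82.3% of the activin subunit level per length with LOC550643 siRNA and 72.6% with control siRNA, and the summed level of the 4 subunits overlapped between groups, at 25.6 ± 4.27 CPM per kilobase with LOC550643 siRNA and 20.4 ± 3.11 with control siRNA.

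**Figure D3:**
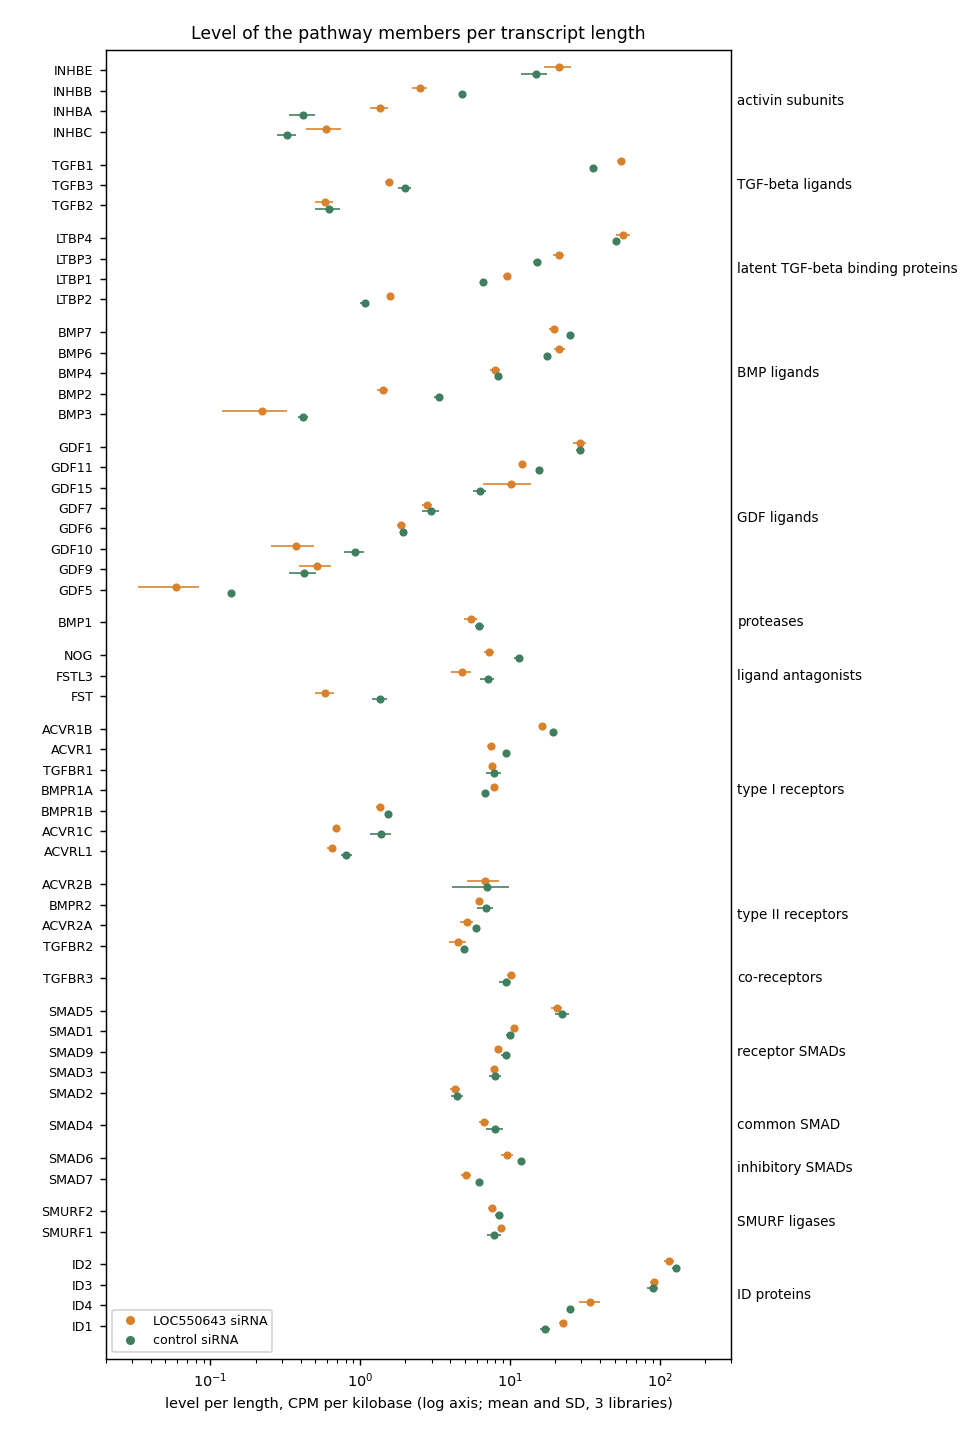
Level per transcript length in CPM per kilobase (log axis) of the 54 tested members by role; points are means of 3 libraries with SD, LOC550643 siRNA drawn above control siRNA. ID2 and ID3 are highest in both groups and GDF5 lowest, and the points of TGFB1, INHBA, INHBB, BMP2 and FST lie visibly apart.

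The other 6 members were too low to be tested. BMP5, BMP10, BMP15, GDF2, GDF3 and GREM1 reached at most 0.353 CPM in any library, and BMP15 and GDF2 were at 0 in all 6, where a count of 0 allows up to 0.349 CPM in the shallowest library. GDF2 neighbours GDF10 on chromosome 10, at a distance of 8915 bases. In the authors' deposited table, 25 of the 54 tested members had an adjusted p under 0.05, as did 31.8% of all genes tested here. All 25 are among the 26 called here, with the same sign, and SMAD7 is the other.

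Other genes of the pathway, listed by role, also differed in both directions, 26 higher (18.2%) and 31 lower (21.7%) of 143 genes tested, with a median log2 fold change of 0.01. These shares lie near those of all genes tested, 17% higher and 18.2% lower, and no list was tested against them. Of 15 further ligands and prodomain-processing genes 2 were called higher and 5 lower (median 0.03). TLL2, a BMP1-like protease, averaged 6.99 ± 0.697 CPM with LOC550643 siRNA and 10.97 ± 0.613 CPM with control siRNA (log2 fold change -0.65, limma adjusted p = 0.000877). LRRC32 and NRROS, which hold latent TGF-beta at the cell surface, were at -0.83 and -0.71, and the convertase FURIN at -0.25. The call of LRRC32 was lost after thinning (log2 fold change -0.53, adjusted p = 0.0772, range 0.000208 to 0.0772) and that of FURIN without LOC550643 siRNA replicate 3 (0.0721, range 0.003 to 0.0721). The call of BMP8A (-0.51) came with overlapping groups. It did not pass when LOC550643 siRNA replicate 2 (limma adjusted p = 0.118) or replicate 3 (adjusted p = 0.0756) was left out, nor when control replicate 1 (adjusted p = 0.0536) or replicate 2 (adjusted p = 0.081) was, nor with voom weights (adjusted p = 0.0534). Its adjusted p ranged between 0.0137 and 0.118 over all alternatives. Leaving out a library left 4 to 5 calls in this list, 4 of them without LOC550643 siRNA replicate 2 or 3 or control replicate 1. Of 26 co-receptors and extracellular regulators 6 were lower and the other 20 were not called (median -0.15). AMHR2, the anti-Müllerian hormone receptor, averaged 3.22 ± 0.492 CPM with LOC550643 siRNA and 6.22 ± 0.648 CPM with control siRNA (log2 fold change -0.95, limma adjusted p = 0.000485). FSTL4, a follistatin-like protein, was at -1.28, THBS1, an activator of latent TGF-beta, at -1.03, the decoy receptor BAMBI at -0.39 and the receptor neogenin (NEO1) at -0.35. The call of THBS1 was lost after thinning (adjusted p = 0.0689, range 0.0011 to 0.0689).

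Inside the cell, calls were also mixed. Of 34 SMAD adaptors, ubiquitin ligases and phosphatases 6 were higher and 7 lower (median 0.02), a total that dropped to 8 calls without LOC550643 siRNA replicate 2. CTDSPL, a phosphatase that acts on SMAD linkers, averaged 32.2 ± 3.06 CPM with LOC550643 siRNA and 63.7 ± 3.44 CPM with control siRNA (log2 fold change -0.99, limma adjusted p = 6.97e-06). PPP1R15A, a phosphatase subunit that SMAD7 brings to TGFBR1 and that also acts in the stress response, was at 0.69, and PMEPA1, which sequesters receptor SMADs, at 0.68. The sorting nexin SNX6 was at -0.55 and the kinase MAP3K7 (TAK1) at -0.47. Of 26 SMAD nuclear partners 8 were higher and 2 lower (median 0.11). The deacetylase HDAC1 averaged 376 ± 24.8 CPM with LOC550643 siRNA and 229 ± 9.27 CPM with control siRNA (log2 fold change 0.72, limma adjusted p = 2.94e-05), ZNF423, a SMAD partner in BMP responses, was at 0.87, the transcription factor TFE3 at 0.56, the pocket protein RBL1 at 0.43 and the corepressor TGIF2 at 0.43.

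Known target genes did not share a direction. Of 29 TGF-beta and activin targets, a list that mixes induced and repressed genes, 9 were higher and 6 lower (median 0.06). TIMP3, a metalloprotease inhibitor, averaged 120 ± 8.84 CPM with LOC550643 siRNA and 73.8 ± 0.99 CPM with control siRNA (log2 fold change 0.70, limma adjusted p = 2.67e-05). PMEPA1 and RHOB, both induced by TGF-beta in many cells, were at 0.68 and 0.55, while CDKN2B, also an induced target, was at -0.68 and CDC25A, a repressed target, at 0.66. TGFBI, a matrix protein named for its induction by TGF-beta, was too low to be tested, at 0.188 CPM with LOC550643 siRNA and 0.0895 CPM with control siRNA. Of 20 BMP targets 2 were higher and 8 lower (median -0.07). Named by the smallest p, TBX2 was at 0.51, DLX5 at -0.72, GATA2 at 0.38, HAND1 at -0.33 and BAMBI at -0.39, all transcription factors except BAMBI.

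**Figure D4:**
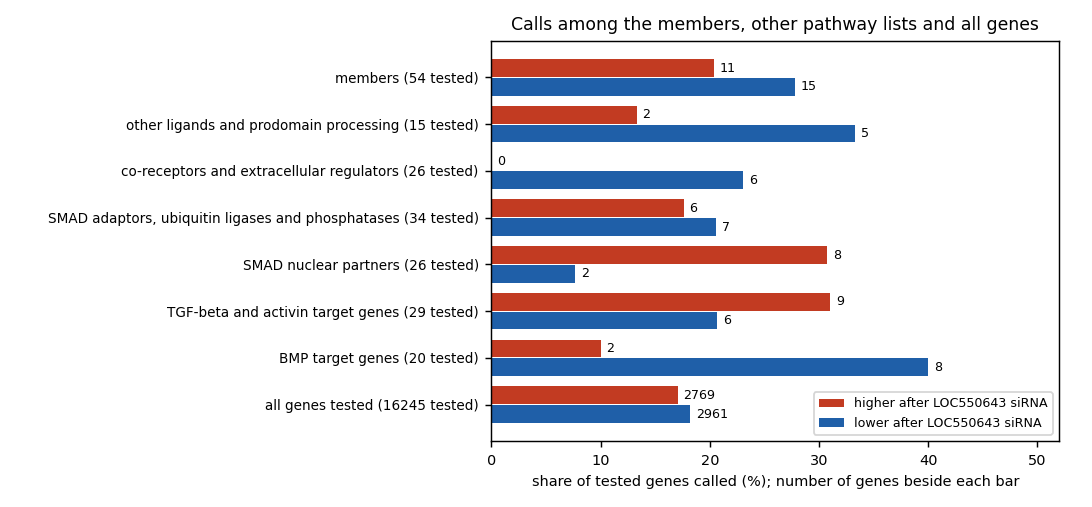
Share of tested genes called higher and lower after LOC550643 siRNA (horizontal axis, percent), with the number of genes beside each bar, for the 54 tested members, 6 other pathway lists and all 16245 genes tested. The members stand at 11 higher and 15 lower, and all genes tested at 2769 higher and 2961 lower.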

How the data were processed

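The deposited table gives, per gene and library, a signal that the authors scaled so that each library sums to 29401170 to 29401184, together with the deposited log2 fold change and p-value of their own comparison. Reads were aligned to hg19 with STAR 2.4.0k after CASAVA 1.8.2, and groups compared with edgeR 3.6.8, per the labels; exon reads were counted with HOMER without a strand option, per the file headers, so reads of opposite-strand overlaps cannot be assigned to a gene with certainty. Of the values above 0, leaving out the largest, which were not checked, 100% lay within 0.1 step of a whole multiple of a step. From the values, that step was taken as 1 read end.

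Values were TMM-scaled and tested with limma 3.58.1 (two-sided, empirical Bayes with trend) after adding 1 deposited unit (0.034 CPM) and taking log2, a scale that understates changes of low genes, in R 4.3.3. Genes passing edgeR's filter at 10 read pairs (16245) were tested, with Benjamini-Hochberg adjustment over all of them. On the recovered reads, edgeR 4.0.16 (quasi-likelihood) called 2859 genes higher and 2992 lower, against 2769 and 2961 with limma. A count of 0 allows up to 3 pairs, 0.0831 to 0.349 CPM, for counting error only. Replicates differed by more than counting error in every pair (chi-square 5.47 to 41.4 per degree of freedom). Scripts were tested on simulated data. CPM per kilobase uses the transcript length the file gives, and exon overlaps come from GENCODE on GRCh37.

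Promoter windows came from RefSeq (GRCh38.p14), where 52 of 60 members matched by symbol. Other starts of the same symbol were not searched. Every member is named; of each other list, up to 5 called genes with the smallest p; and rows that overlap a called member, though some genes this rule names are not reported here. Members and lists were chosen with earlier results of these data known. Alternatives were other scalings, filters, pseudocounts of 0.1 and 10 units, edgeR, DESeq2 1.42.0, voom, a replicate block, thinning to the shallowest library and each library left out in turn.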

Additional observations from a re-analysis of the deposited data

How the results depend on the processing

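Of the 26 called members, 16 kept their call in all 20 alternative settings and 10 lost it in at least 1. The number of members called higher ran from 8 to 11 and lower from 12 to 22, the last with library totals alone; leaving out single libraries gave 8 to 10 higher and 12 to 16 lower. For further ligands and processing genes those fits gave 4 to 5 calls against 7, and for SMAD adaptors, ligases and phosphatases 8 to 13 against 13. The replicate number, used as a block, gave 11 members higher and 14 lower, with TGFB3 lost (adjusted p = 0.0594 with limma and 0.0589 with edgeR), and 2559 genes higher and 2740 lower in all. After each group was centred on its own mean, same-numbered libraries correlated at 0.0584, -0.283 and -0.12. Libraries of different number correlated at -0.136 to 0.247. Centring ties these values to each other, so they cannot decide whether same-numbered libraries share a passage or batch.

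Every called member kept its sign in all 20 settings, while 10 members that were not called changed theirs in some. ACVR2B, at 0.00389, was at -0.0702 with library totals alone, -0.0506 and -0.0584 with edgeR on read ends and pairs, -0.036 with DESeq2, -0.0335 with voom, -0.00292 with edgeR and the block and -0.0345 after thinning. With library totals alone, GDF1 was at -0.0663 and ID3 at -0.0356. After thinning, BMP4 was at 0.0479, GDF6 at 0.0271, SMAD2 at 0.0322, SMAD3 at 0.0106 and TGFB2 at 0.00564. Leaving out single libraries moved ACVR2B between -0.245 and 0.301, GDF1 between -0.0654 and 0.0771, GDF7 between -0.176 and 0.00463, ID3 between -0.0168 and 0.102, SMAD2 between -0.0973 and 0.0135, SMAD3 between -0.0787 and 0.0333, TGFB2 between -0.211 and 0.0491 and TGFBR1 between -0.147 and 0.00479. The cause was not tested. After thinning to the depth of LOC550643 siRNA replicate 3, the shallowest library, the calls of ACVR1B, BMP3, GDF10, INHBC and TGFB3 were lost (adjusted p = 0.056, 0.0653, 0.065, 0.135 and 0.117), while those of INHBA and FST were kept.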
